A study of Arabidopsis thaliana with 18 samples.

Results

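The genes described here are the CBF transcription factors of the cold response and a set of cold-regulated genes whose proteins protect cells against dehydration. They were chosen by locus, not by level: CBF1 (AT4G25490), CBF2 (AT4G25470) and CBF3 (AT4G25480), and the protective genes COR15A (AT2G42540), COR15B (AT2G42530), KIN1 (AT5G15960), RD29A (AT5G52310), COR47 (AT1G20440), ERD10 (AT1G20450) and ERD14 (AT1G76180). These 10 genes, of 22591 probe sets with a locus, each had 1 probe set on the Affymetrix ATH1 array, and all 10 passed the filter on dim signals. The 18 arrays, of RNA from Arabidopsis thaliana leaves, form 6 groups of 3, lettered A, B and C. The OE leaves came from lines that over-express the potato zinc finger gene StZFP2, and were taken unwounded (control), at 1 h or at 6 h after a wound. Leaves of the wild type Col-0 were taken in the same 3 states. By its sample labels, OE pools the lines OEEV47-1 and OEEV47-2, which the design text lists apart. Neither gives the promoter of the transgene, and the transgene's level was not analysed here.

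CBF proteins are AP2/ERF factors that bind the C-repeat, or dehydration-responsive, element in the promoters of cold-regulated genes. In Arabidopsis leaves, cold induces the CBF genes within hours through factors such as ICE1 and the CAMTA proteins, and the CBF proteins then raise the COR genes, which leads to freezing tolerance. The circadian clock gates the CBF genes towards the day, and several COR genes also respond to abscisic acid, drought and salt without CBF. COR15A and COR15B are chloroplast proteins that protect membranes during freezing. COR47, ERD10 and ERD14 are acidic dehydrins, hydrophilic proteins that bind membranes and keep other proteins in solution. KIN1 is a small hydrophilic protein of cold and abscisic acid responses, and RD29A is a hydrophilic protein whose promoter is a standard reporter for dehydration and cold.

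In the gene table of assembly TAIR10.1, the CBF genes lie side by side in the order CBF1, CBF3, CBF2, with 0 protein-coding genes between neighbours. COR15A and COR15B are also neighbours, as are COR47 and ERD10, RD29A and RD29B, and KIN1 and KIN2. The KIN1 probe set is of the kind shared between near-identical genes, so its signal may hold KIN2 RNA as well, and KIN2 had no probe set of its own. Among other genes named below, BZR1, LUX and PRR9 have probe sets of this kind, so their signals may hold RNA of another gene too. The CBF genes are close in sequence too, and whether their probe sets cross-react was not tested.

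The median signal of an array, in MAS5 units scaled by the authors, was between 127.5 and 161.1. Replicates could be technical, since the labels name no separate plants, so p-values measure the spread between these samples. All 9 Col-0 arrays were closest to arrays of their own label. Only 3 of 9 arrays labelled OE were closest to the Col-0 group of the same treatment label, namely control C, 1h wound C and 6h wound C. Closest to Col-0 at 6 h were OE control A and B. OE 1h wound A and B were closest to unwounded Col-0, and OE 6h wound A and B to Col-0 at 1 h. Groups were kept as labelled, and results that use OE arrays are given with and without these 6 arrays. A fit without them has 1 OE array per label and takes its spread from the Col-0 groups. In Col-0, the control array A was the lowest of the 3 controls for 8 of the 10 genes, all but CBF1 and CBF2. No unwounded leaves of the 6 h time point and no hour of harvest are named in the labels, so wounding and time of day cannot be told apart at 6 h. In whole leaves, fewer cells of a type and less RNA per cell cannot be told apart either.

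Of the 3 CBF genes in the wild type, CBF3 was called after wounding, and it rose late. CBF3 signals were 37.1, 42.7 and 74.2 in unwounded Col-0 leaves, 50.6, 42.6 and 66.7 at 1 h, and 503, 485 and 716 at 6 h. The 6 h arrays lay far above the others without overlap, while the unwounded and 1 h arrays overlapped near the background of the array. At 6 h CBF3 was higher than in unwounded leaves by 3.51 ± 0.30 on the log2 scale (SE), an 11.4-fold difference (limma with Benjamini-Hochberg adjustment, adjusted p = 6.33e-06). The size of this fold is uncertain, since 2 of 3 unwounded arrays had CBF3 below the 40th percentile of all signals. At 1 h all 3 arrays were below it, and the 6 h level was at least 7.95-fold the 1 h level (limma adjusted p = 2.92e-06). The bound sets the 1 h arrays at that percentile.

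CBF2, the neighbour of CBF3, did not pass at either time. Its signals were 145, 56.3 and 132 in unwounded Col-0 leaves, 101, 183 and 145 at 1 h, and 136, 139 and 229 at 6 h. The 3 groups overlapped. The log2 change at 6 h over unwounded leaves was 0.67 ± 0.36 (SE; limma adjusted p = 0.194), with a 95% interval of -0.12 to 1.46. The difference between the changes of CBF3 and CBF2 was not tested. CBF1 was dim in the wild type. Its signals were 63.4, 48.6 and 5.48 in unwounded Col-0 leaves, 27.3, 32.4 and 34.1 at 1 h, and 48.8, 25.2 and 94.6 at 6 h. Only the array at 94.6 reached the 40th percentile, so no fold is given for CBF1 in Col-0, and a fitted log2 change that uses these signals, as in the plot of changes, does not measure one.

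**Figure D1:**
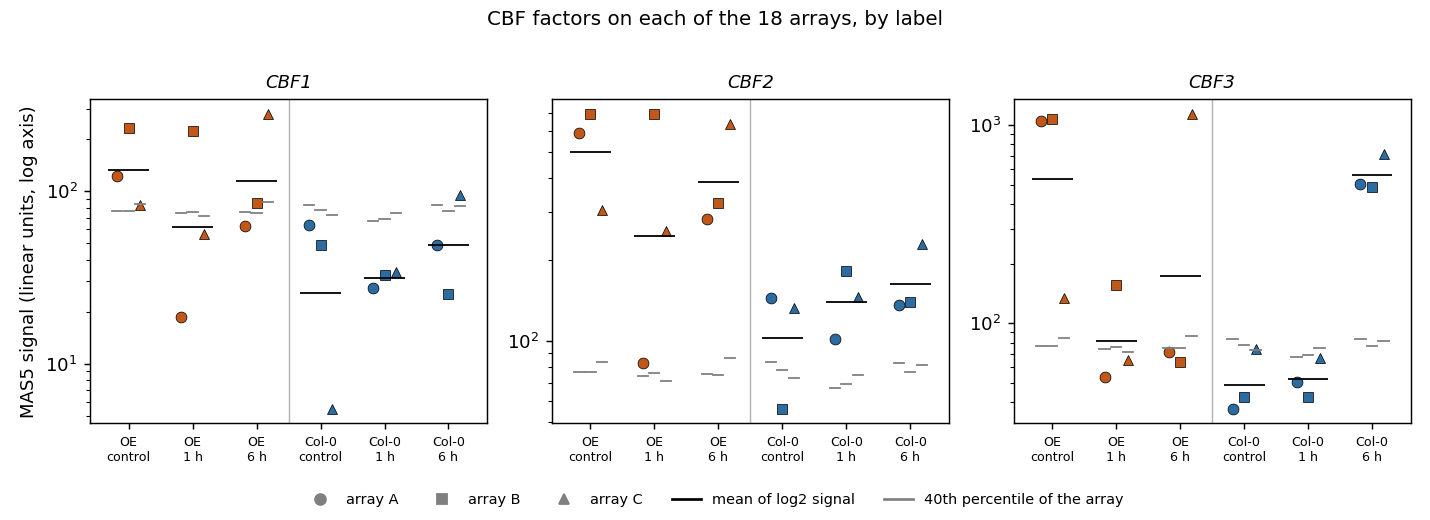
Signals of CBF1, CBF2 and CBF3 on each array (MAS5 units, log axis), with OE groups on the left and Col-0 groups on the right of each panel; points are arrays A, B and C, black bars the mean of log2 signal, grey bars the 40th percentile of each array. CBF3 was at 485 to 716 on the 3 Col-0 arrays at 6 h, and OE control A, OE control B and OE 6h wound C were above all Col-0 arrays for each of the 3 genes.

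The chloroplast COR15 genes rose with CBF3 in the wild type. COR15B signals were 200.1, 658 and 1070 in unwounded Col-0 leaves, 724, 481 and 392 at 1 h, and 3943, 2542 and 3349 at 6 h. All 6 h arrays were above all earlier ones. COR15B was 6.20-fold higher at 6 h than in unwounded leaves (log2 2.63 ± 0.47, SE; limma adjusted p = 0.00124) and 6.26-fold higher than at 1 h (limma adjusted p = 0.00071). Without control A the log2 change over unwounded leaves was 1.94. COR15A measured 2769, 9267 and 18285 in unwounded Col-0 leaves, 10568, 10242 and 10933 at 1 h, and 33235, 19039 and 26085 at 6 h. The highest unwounded array was just under the lowest 6 h array, and the unwounded arrays spread widely. COR15A was 3.28-fold higher at 6 h than in unwounded leaves (log2 1.71 ± 0.49, SE; limma adjusted p = 0.0198). The log2 change was 0.97 without control A and 2.33 without control C. The call was lost without the 6 h array A (adjusted p = 0.0773) or C (adjusted p = 0.054) and in the fit of all 18 arrays (adjusted p = 0.0533). Against 1 h, COR15A did not pass (log2 1.27 ± 0.49, SE; limma adjusted p = 0.0536).

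KIN1 also rose by 6 h. Its signals were 7795, 16560 and 21302 in unwounded Col-0 leaves, 19444, 19282 and 17084 at 1 h, and 38574, 31170 and 32299 at 6 h. The 6 h arrays were above all others. The fold over unwounded leaves was 2.42 (log2 1.27 ± 0.27, SE; limma adjusted p = 0.00432), which did not pass in the fit of all 18 arrays (adjusted p = 0.064). Over 1 h the log2 change was 0.87 ± 0.27 (SE; limma adjusted p = 0.0229), and this call was lost with quantile normalization (adjusted p = 0.0622) and with subtraction of array medians (adjusted p = 0.0829). It was also lost without the 1 h array B or C or the 6 h array A (adjusted p from 0.0509 to 0.0811).

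RD29A, whose promoter serves as the reporter, was not called. It measured 1356, 6847 and 9279 in unwounded Col-0 leaves, 6972, 8022 and 6119 at 1 h, and 5781, 5807 and 6933 at 6 h. The groups overlapped, and the 1 low array was control A. The log2 change at 6 h over unwounded leaves was 0.48 ± 0.51 (SE; limma adjusted p = 0.535), and it became -0.37 without control A. Its 95% interval, -0.64 to 1.59, includes changes of the size seen for KIN1. The neighbour RD29B, a gene of abscisic acid responses that was singled out after its values were seen, changed by 0.46 ± 0.35 (SE; limma adjusted p = 0.367).

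ERD10, an acidic dehydrin, was lower late in the wound course. Its signals were 12788, 24566 and 31876 in unwounded Col-0 leaves, 32092, 36737 and 34131 at 1 h, and 8995, 7782 and 10669 at 6 h. The 6 h arrays were below all others, and the 1 h arrays above all others. At 6 h ERD10 fell by 1.25 on the log2 scale against unwounded leaves, to 0.421 of their level (SE 0.26; limma adjusted p = 0.0032), and its log2 change against 1 h was -1.92 ± 0.26 (SE), to 0.265 of that level (limma adjusted p = 8.92e-05).

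COR47, the neighbour of ERD10, measured 5220, 11372 and 15615 in unwounded Col-0 leaves, 13970, 15829 and 16328 at 1 h, and 7214, 7809 and 9648 at 6 h. ERD14 measured 6621, 10008 and 13880 in unwounded leaves, 14231, 16027 and 14129 at 1 h, and 8451, 8544 and 9423 at 6 h. For both genes the 6 h arrays were below all 1 h arrays and inside the range of the unwounded ones. Against 1 h, ERD14 fell by 0.75 (SE 0.21; limma adjusted p = 0.0113) and COR47 by 0.91 on the log2 scale (SE 0.30; limma adjusted p = 0.0269). The COR47 call was lost with quantile normalization (adjusted p = 0.0537), while its value moved to -0.80, and without the 1 h array B or C or the 6 h array A or B (adjusted p from 0.0705 to 0.0881). Against unwounded leaves at 6 h neither passed, with log2 changes of -0.26 ± 0.30 for COR47 and -0.14 ± 0.21 for ERD14 (SE). Without control A both were called lower there, COR47 at -0.71 (limma adjusted p = 0.00541) and ERD14 at -0.42 (limma adjusted p = 0.0442).

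**Figure D2:**
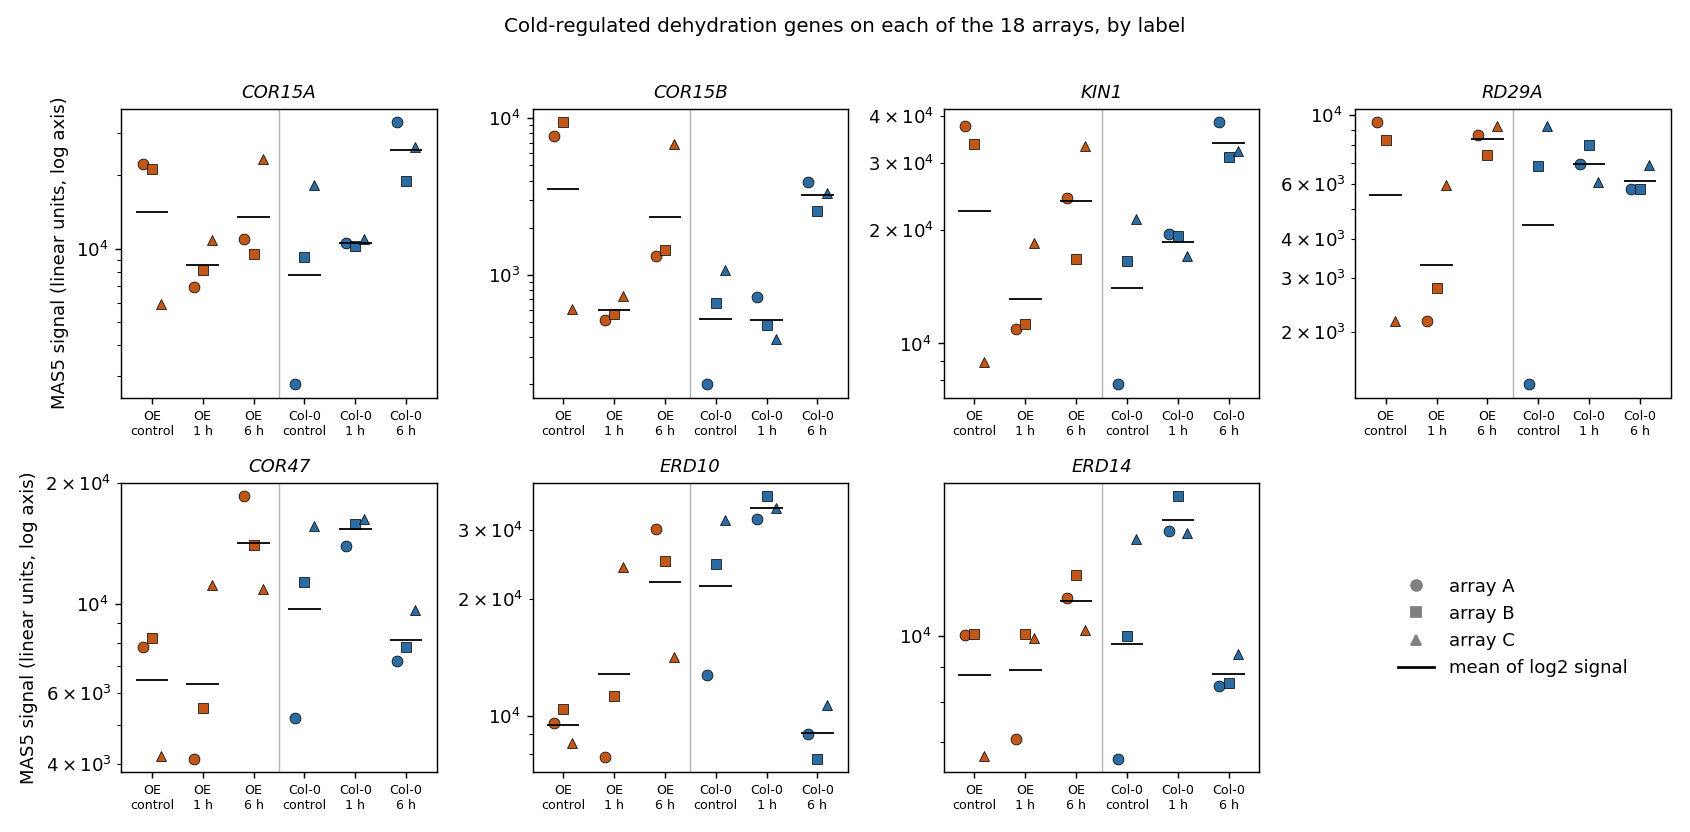
Signals of the 7 cold-regulated dehydration genes on each array (MAS5 units, log axis), with OE groups on the left and Col-0 groups on the right of each panel; points are arrays A, B and C and black bars the mean of log2 signal. In Col-0 the 6 h arrays were the highest for COR15A, COR15B and KIN1 and the lowest for ERD10, and control A was the lowest Col-0 control for all 7 genes.

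At 1 h after wounding 0 of the 10 genes passed (limma, adjusted), while 3.64% of the 14823 probe sets tested were called higher and 2.2% lower. Before adjustment COR47, ERD10 and ERD14, 3 genes, were below 0.05, as were 3108 of the 14823 probe sets. Log2 changes of the 3 dehydrins over unwounded leaves were 0.65 ± 0.30 for COR47, 0.67 ± 0.26 for ERD10 and 0.60 ± 0.21 for ERD14 (SE). Without the Col-0 control array C, the brightest control for them, all 3 were called higher, at 0.99 (limma adjusted p = 0.0315), 0.95 (adjusted p = 0.0216) and 0.86 (adjusted p = 0.00645). Without control A, the lowest control for them, their changes shrank to 0.20, 0.29 and 0.33, and 0 of the 10 genes passed. The other protective genes were between -0.01 ± 0.47 for COR15B and 0.66 ± 0.51 for RD29A (SE).

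At 6 h against unwounded leaves, 4 of the 10 genes were called higher, CBF3, COR15B, COR15A and KIN1, and 1 lower, ERD10. The background was 15.4% of probe sets higher and 13.6% lower. The median log2 change was 0.48 over the 7 protective genes and 0.04 over all probe sets. At 6 h against 1 h, 3 genes were called higher, CBF3, COR15B and KIN1, and 3 lower, ERD10, COR47 and ERD14. Here 25.4% of probe sets were called higher and 17.3% lower, and the median of all probe sets was 0.13, against -0.19 over the protective genes. The comparisons at 6 h share their 6 h arrays, so they are not independent.

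**Figure D3:**
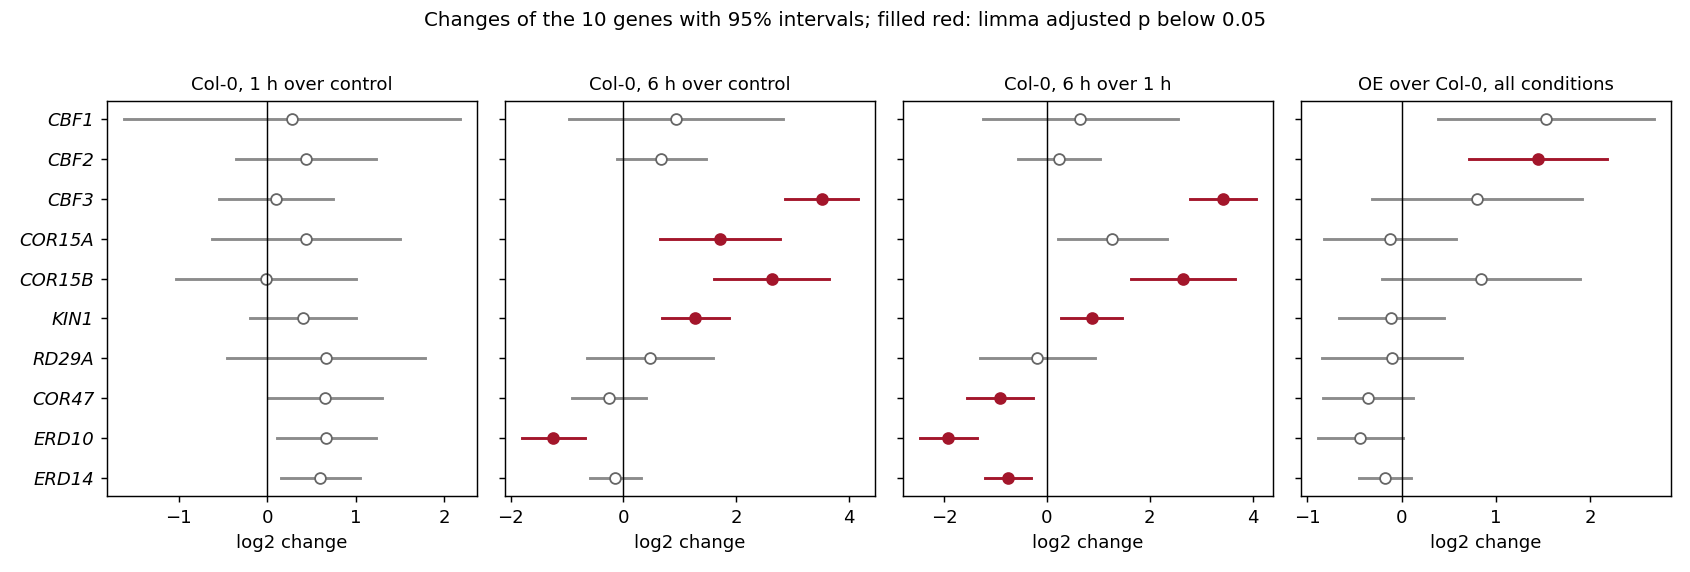
Log2 changes of the 10 genes with 95% intervals (x axis) in the Col-0 wound comparisons and in OE against Col-0; filled red points had a limma adjusted p below 0.05. CBF3 reached 3.51 and ERD10 -1.25 at 6 h over unwounded leaves, and CBF2 reached 1.45 in OE over Col-0.

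The 3 CBF factors and 7 protective genes were set beside other genes of the pathway, taken from lists of known roles. Among direct regulators of CBF transcription, 11 of 12 were tested. MYB15, a repressor of the CBF genes, was higher at 1 h over unwounded leaves (log2 1.72 ± 0.20, SE; limma adjusted p = 0.000544). It was the 1 gene called, against 3.64% of all probe sets higher and 2.2% lower. MYB15 signals were 392, 705 and 480 in unwounded Col-0 leaves, 1651, 1809 and 1594 at 1 h, and 216, 191 and 159 at 6 h, with no overlap between the 3 groups. At 6 h against unwounded leaves 1 of 11 genes of this list was higher and 2 lower, near the shares of all probe sets (15.4% higher and 13.6% lower). SOC1, a flowering factor that represses CBF genes, was higher by 1.96 ± 0.15 (SE; limma adjusted p = 3.4e-06). MYB15 was lower, at -1.45 ± 0.20 (SE; limma adjusted p = 0.000218), and so was BZR1, a brassinosteroid factor that promotes CBF expression, at -1.15 ± 0.14 (SE; limma adjusted p = 8.71e-05). Of the 9 tested kinases and ligases of cold signalling, BIN2 was higher (0.59 ± 0.15) and MEKK1 lower (-0.63 ± 0.20, SE) at 6 h, again near those shares, and without control B neither passed.

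Among factors induced by cold in parallel to the CBF genes, 5 of 10 were higher at 1 h and 0 lower, against 3.64% and 2.2% of all probe sets. The AP2 gene DEAR1 was higher by 1.90 ± 0.19, and the zinc finger genes ZAT10, ZAT12 and CZF1 by 1.04 ± 0.20, 0.90 ± 0.23 and 0.76 ± 0.19 (SE, log2). MYB73, named after its values were seen, was the fifth. Without control A or without control B, 2 of the 10 passed at 1 h. At 6 h against unwounded leaves 1 was higher and 5 were lower, or 2 lower without control B, against 15.4% and 13.6% of all probe sets. RAV1, an AP2/B3 factor, was the higher one (1.43 ± 0.17). The lower ones included the heat shock factor HSFC1 (-2.87 ± 0.42), the cytokinin response factor CRF2 (-1.16 ± 0.38) and ZAT10 (-1.01 ± 0.20). Among relatives of the CBF genes 5 of 8 were tested, and DREB2B, a factor of heat and drought responses, was called higher at 6 h, at least 1.38-fold over unwounded arrays that all lay below the 40th percentile (limma adjusted p = 0.0383). That call was lost without control B or C.

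Of 19 other cold-regulated genes tested, 0 passed at 1 h (limma). Before adjustment 4 of the 19 were below 0.05, as were 3108 of the 14823 probe sets. At 6 h against unwounded leaves 10 of the 19 were higher and 5 lower, with a median log2 change of 0.99. Of all probe sets 15.4% were higher and 13.6% lower. The glycine-rich RNA-binding protein gene GRP7, which is clock-controlled, was at 11470, 10166 and 7246 in Col-0 leaves at 6 h, against 488, 755 and 879 in unwounded leaves. The rise was 3.78 ± 0.23 on the log2 scale (SE; limma adjusted p = 5.3e-07). SEX1, the glucan water dikinase of starch breakdown, was higher by 2.81 ± 0.20 (SE), and COR27, a cold-induced regulator of the clock, was at least 1.91-fold higher over unwounded arrays below the 40th percentile. GOLS2, a galactinol synthase of drought responses, fell by 3.65 on the log2 scale (SE 0.65; limma adjusted p = 0.00122). The dehydrin LTI30 and the membrane proteins COR413-PM1 and COR413IM1, singled out after their values were seen, were higher by 1.39 ± 0.30, 1.85 ± 0.25 and 1.91 ± 0.44 (SE, log2). LTI30 and RAB18, another dehydrin, of the abscisic acid list and named after its values were seen (1.12 ± 0.29, SE), were called higher and ERD10 lower, though the difference between them was not tested.

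Abscisic acid genes of dehydration moved mostly down at 6 h. Of 13 tested 8 were lower and 4 higher against unwounded leaves, with a median log2 change of -0.85, against 13.6% and 15.4% of all probe sets. RD26, a NAC factor of abscisic acid and drought, measured 1755, 1606 and 1672 in Col-0 leaves at 6 h, against 6462, 10442 and 13319 in unwounded leaves, a log2 difference of -2.53 ± 0.21 (SE; limma adjusted p = 5.42e-06). The phosphatase genes HAI1 and ABI2, which dampen abscisic acid signalling, changed by -2.02 ± 0.34 and -1.19 ± 0.24, and the bZIP factor ABF3 by -1.39 ± 0.32 (SE, log2). At 1 h 2 of 13 were higher and 0 lower, against 3.64% and 2.2% of all probe sets. They were NCED3, which makes the precursor of abscisic acid (1.89 ± 0.29, SE), and the late embryogenesis abundant gene SAG21 (1.47 ± 0.20, SE). Under quantile normalization and subtraction of array medians, the counts of this list were the same at both times. The fit of all 18 arrays, with its wider error, called fewer genes: at 1 h 0 of the first-wave factors, direct regulators and abscisic acid genes, and at 6 h 6 of the other cold-regulated genes higher and 3 lower, and 3 abscisic acid genes higher and 5 lower.

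**Figure D4:**
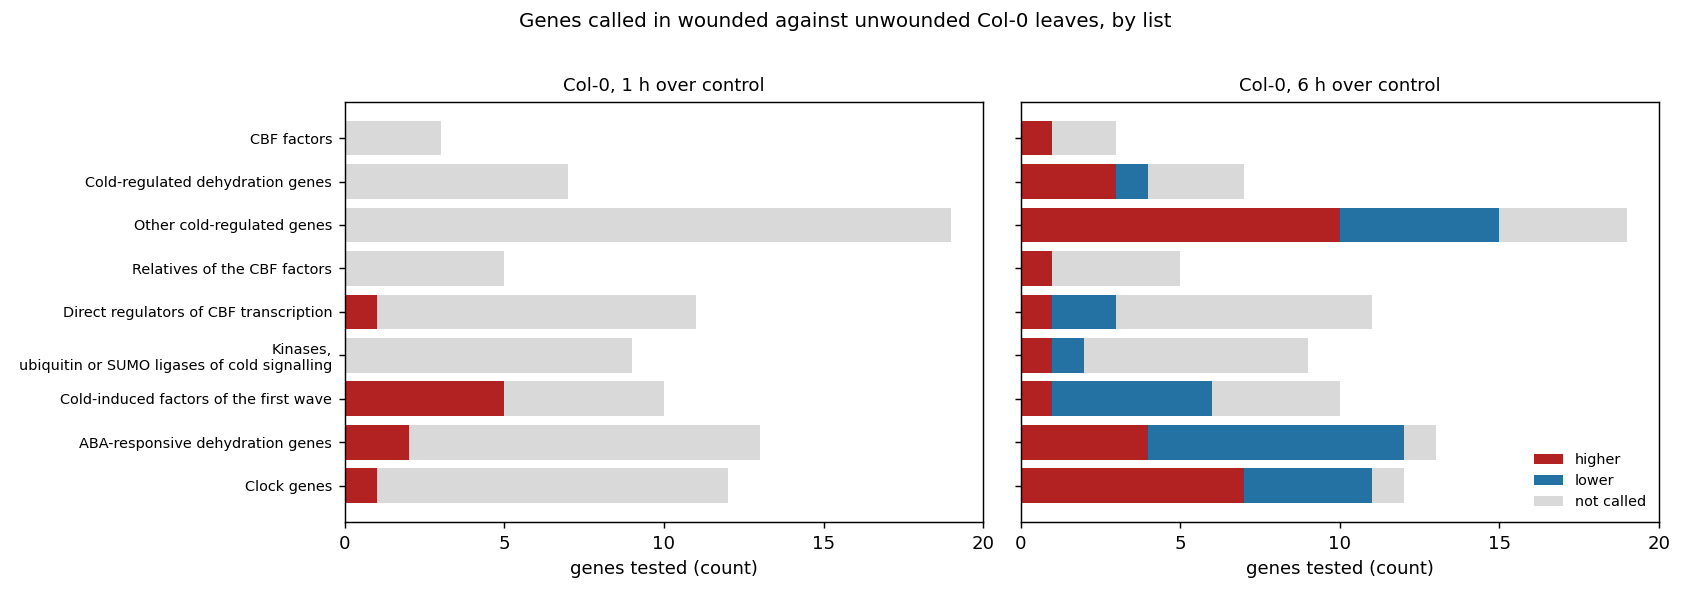
Number of tested genes of each list called higher (red), lower (blue) or not called (grey) in wounded against unwounded Col-0 leaves, at 1 h on the left and at 6 h on the right. At 1 h the first-wave factors had 5 of 10 genes called higher, and at 6 h the other cold-regulated genes had 10 of 19 higher and the abscisic acid genes 8 of 13 lower.

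Clock genes moved at the same time point as CBF3 and the COR15 genes. Of 12 clock genes, 7 were higher and 4 lower at 6 h against unwounded Col-0 leaves (3 and 3 in the fit of all 18 arrays). Of all probe sets 15.4% were higher and 13.6% lower there. At 1 h 1 clock gene was higher and 0 lower, against 3.64% and 2.2% of all probe sets. It was LUX, whose signals were below the 40th percentile in both groups. The evening-phased PRR5 measured 732, 780 and 552 at 6 h, against 5.80, 12.8 and 7.76 in unwounded leaves, which is at least 8.72-fold. LHY, a morning MYB factor that binds the CBF promoters, fell to 604, 353 and 487 at 6 h, against 5903, 7025 and 6294 in unwounded leaves, a log2 difference of -3.77 ± 0.20 (SE; limma adjusted p = 2.38e-07). CCA1, its close relative, changed by -1.84 ± 0.21 and RVE8 by -2.01 ± 0.22, while PRR7, GI and TOC1 were higher by 1.93 ± 0.19, 1.90 ± 0.25 and 1.37 ± 0.25 (SE, log2). The part of these clock genes in the CBF3 and COR15 levels was not tested. The ratio of 3' to 5' actin probe sets is a sign of RNA quality. On Col-0 arrays at 6 h it was 4.12 to 6.97, against 5.54 to 10.4 on unwounded ones. Col-0 arrays of the 1 h group spanned 7.28 to 10.7, all above the 6 h arrays. The GAPDH ratio lay between 1.61 and 1.84 in that group, against 1.34 to 1.61 in the 6 h group. The part of RNA quality in the 6 h results, over unwounded leaves or over 1 h, was not tested.

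In OE against Col-0 leaves over all conditions, CBF2 was the 1 gene of the 10 that passed, against 3.01% of all probe sets called higher and 1.83% called lower. CBF2 signals were 592, 692 and 305 on the arrays labelled OE control A, B and C, 82.8, 693 and 256 on those labelled OE 1h wound, and 283, 323 and 636 on those labelled OE 6h wound. Of these 9 arrays 8 were above the highest of the 9 Col-0 arrays, which was 229; the exception was OE 1h wound A. The mean signal was 429 ± 225 in OE and 141 ± 48.0 in Col-0 leaves (SD, n = 9 each). The log2 difference was 1.45 ± 0.34 (SE), or 2.73-fold (limma adjusted p = 0.0261). The call was close to the threshold. Without the 6 OE arrays closest to another treatment label the log2 difference was 1.47. That fit has 1 OE array per label, so the wide spread of CBF2 among OE arrays does not enter it. The call was lost with no term for treatment (limma adjusted p = 0.0537). It was also lost without any 1 of 6 arrays, Col-0 control B, 1h wound C, 6h wound A or 6h wound B or OE control A or B (adjusted p from 0.051 to 0.0565).

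CBF1 and CBF3 were also high on some OE arrays. CBF1 signals were 123, 231 and 82.7 on the OE control arrays A, B and C, 18.7, 223 and 56.1 on the OE 1h wound arrays, and 62.8, 85.6 and 280 on the OE 6h wound arrays, and 4 of the 9 were above the highest Col-0 array at 94.6. The difference from Col-0 did not pass (limma adjusted p = 0.109), and no fold is given, since 8 of the 9 Col-0 arrays were below the 40th percentile for CBF1. CBF3 signals were 1046, 1074 and 135 on the OE control arrays, 53.6, 156 and 65.3 on the OE 1h wound arrays, and 71.9, 63.9 and 1139 on the OE 6h wound arrays. The 3 highest arrays exceeded all Col-0 arrays, the highest of which was 716, and they were OE control A and B and OE 6h wound C, the arrays closest to Col-0 at 6 h. The log2 difference over all conditions was 0.80 ± 0.53 (SE; limma adjusted p = 0.379). Without the 6 arrays closest to another treatment label it was 0.93, again with 1 OE array per label.

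Of the 7 protective genes 0 passed in OE leaves over all conditions (limma; 0 were below 0.05 before adjustment, against 3366 of 14823 probe sets). Their log2 differences from Col-0 were between -0.44 ± 0.21 for ERD10 and 0.84 ± 0.50 for COR15B (SE). Without the 6 OE arrays COR15B was at 0.60 and ERD10 at -0.40. COR15B was above every Col-0 array on the same 3 arrays as CBF3, at 7680, 9501 and 6840, against a highest Col-0 signal of 3943. Without OE control C, at 604, its difference from Col-0 was 1.27 and passed (limma adjusted p = 0.0429). The OE control group then held only arrays A and B, both closest to Col-0 at 6 h, where COR15B was high. State and line therefore cannot be told apart in this value. COR15A, KIN1, ERD10 and ERD14 stayed within the Col-0 range on all 9 OE arrays. COR47 was below all Col-0 arrays on OE control C and OE 1h wound A, at 4202 and 4129, and above them on OE 6h wound A, at 18579. RD29A was above the Col-0 range on 1 array, OE control A, at 9544.

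The difference in wound response between OE and Col-0 was read by label. At 1 h, 0 of the 10 genes differed (limma), with 0% of probe sets called higher and 0% called lower. Before adjustment 1 gene, CBF3, was below 0.05, as were 1497 of 14823 probe sets. At 6 h CBF3 and ERD10 differed in opposite directions, against 10.2% of probe sets with a higher and 13.2% with a lower response in OE. The CBF3 response in OE was lower, with a log2 difference of -5.13 ± 1.29 (SE; limma adjusted p = 0.0146). The ERD10 response was higher by 2.47 ± 0.52 (SE; limma adjusted p = 0.00954). ERD10 signals were 9623, 10448 and 8516 on the OE control arrays, 7846, 11274 and 24094 on the OE 1h wound arrays, and 30281, 24997 and 14204 on the OE 6h wound arrays. Without the 6 OE arrays that were closest to a Col-0 group of another treatment label, neither passed: CBF3 was at -0.43 (limma adjusted p = 0.851) and ERD10 at 1.99 (limma adjusted p = 0.124). That fit has 1 OE array per label, whose spread is taken from the other groups. Leaving out 1 array brought in other genes at 6 h. Without OE control C, COR15A (-2.41), COR15B (-4.49) and KIN1 (-1.85) passed, with limma adjusted p from 0.00288 to 0.0235. Without OE 6h wound C, COR15A (-2.18), COR15B (-3.99) and COR47 (1.57) passed. Without Col-0 control A, COR47 (1.84) and ERD14 (0.78) passed, and without Col-0 control C, COR15A (-2.40). At 1 h COR15B (-3.82) and KIN1 (-1.84) passed without OE control C.

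**Figure D5:**
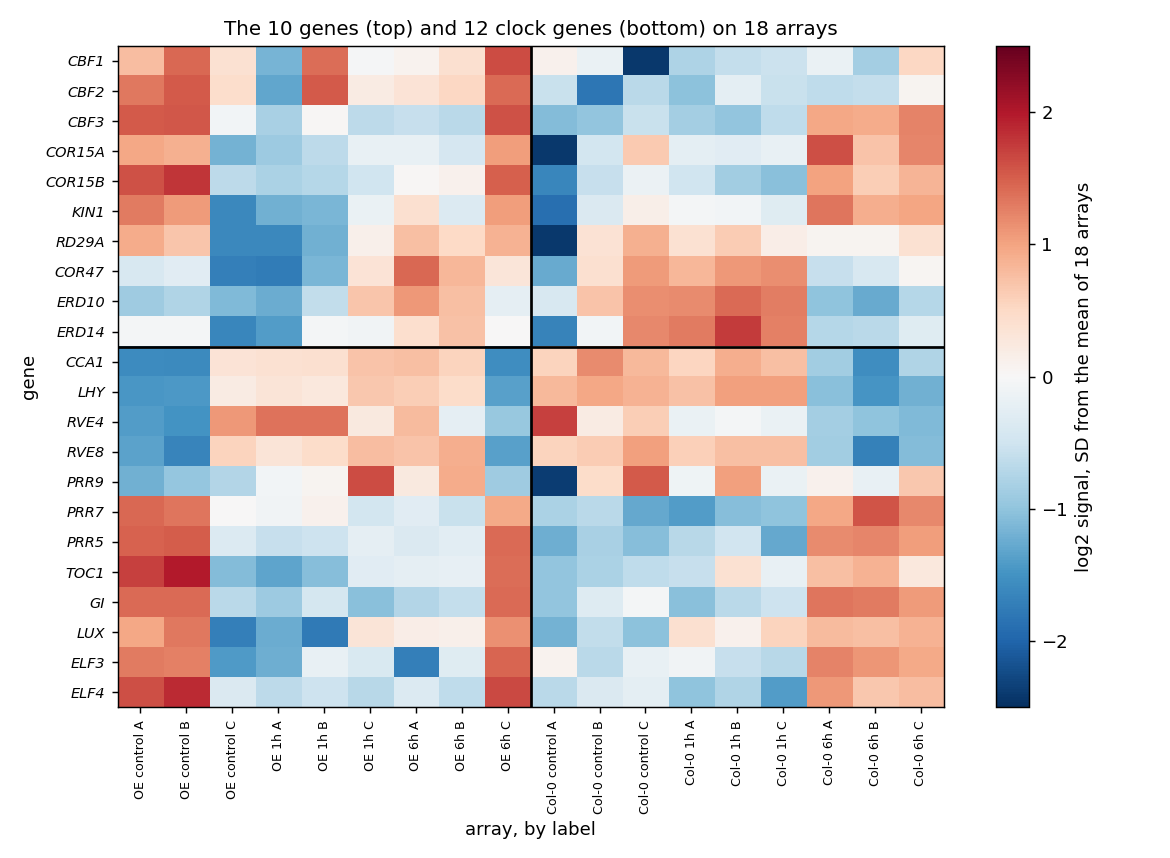
Log2 signal of the 10 genes (upper rows) and 12 clock genes (lower rows) on the 18 arrays, with OE arrays left of Col-0 arrays, as SD from the mean of each gene over all arrays; the colour scale ends at 2.5 SD. OE control A, OE control B and OE 6h wound C carried high CBF3, COR15B and PRR5 and low LHY, as did the 3 Col-0 arrays at 6 h.

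The same 3 OE arrays had high PRR5 and low LHY, as did Col-0 at 6 h. On these 3 arrays PRR5, TOC1, GI, LUX, ELF3 and ELF4 were above every Col-0 array. ELF4, for example, was at 883, 1271 and 933, against 441, 248 and 285 in Col-0 at 6 h. LHY and RVE8 were inside the range of Col-0 at 6 h, and CCA1 and PRR9 were below it. PRR5 was at 1296, 1433 and 1162 on OE control A, OE control B and OE 6h wound C, against 20.9 to 42.9 on the other 6 OE arrays. LHY was at 362, 367 and 403 on these 3, against 2786 to 4953 on the other 6. CBF2 was at 592, 692 and 636 on these 3 and at 82.8 to 323 on 5 of the other 6, but OE 1h wound B, with PRR5 at 23.8, had CBF2 at 693. In OE over all conditions, 1 of the 9 tested kinases and ligases of cold signalling was called higher and 0 lower. Of direct regulators 1 of 11 was lower, of other cold-regulated genes 1 of 19 and of abscisic acid genes 1 of 13, with 0 higher in each. Of the 5 relatives and 10 first-wave factors tested 0 were called. Of all probe sets 3.01% were higher and 1.83% lower. MPK3, a kinase that destabilises ICE1, was higher by 0.51 ± 0.13 (limma adjusted p = 0.0338). BZR1 was lower, at -0.31 ± 0.08 (limma adjusted p = 0.0396), as were the membrane protein gene RCI2B at -0.64 ± 0.15 (limma adjusted p = 0.0286) and SAG21 at -0.82 ± 0.21 (limma adjusted p = 0.0332). Without the 6 OE arrays, with 1 OE array left per label, MPK3 was at 0.58, BZR1 at -0.30, RCI2B at -0.63 and SAG21 at -0.59.

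The 4 mesophyll markers measured, of 7 listed, summed to 107763 to 120641 on OE control, 131471 to 134391 on OE 1h wound and 110428 to 142807 on OE 6h wound arrays. Col-0 sums were 124996 to 146251 on control, 128622 to 135161 on 1h wound and 130788 to 135812 on 6h wound arrays. The OE control arrays, and at least the lowest OE 6h wound array, were thus below all Col-0 arrays. Of the 4 markers 0 were called in OE over all conditions, and the part of mesophyll in the OE results was not tested. Markers of seeds and flowers were dim, and 5 of 5 seed markers and 3 of 4 flower markers were below the 40th percentile on every array. The sum of the 5 guard cell markers was 1360 to 1491 on OE control, 998 to 1311 on OE 1h wound and 1009 to 1497 on OE 6h wound arrays, against 648 to 978 on Col-0 control, 664 to 733 on Col-0 1h wound and 1106 to 1374 on Col-0 6h wound arrays. Of 4 guard cell markers tested 2 were higher and 0 lower in OE than in Col-0, against 3.01% and 1.83% of all probe sets. They were the potassium channel gene KAT1 (0.63 ± 0.17; limma adjusted p = 0.0464) and MYB60 (0.45 ± 0.09; limma adjusted p = 0.0121). KAT1 was also higher in Col-0 at 6 h (1.26 ± 0.19), as the 1 gene of the 4 called there. Without the 6 OE arrays, with 1 OE array left per label, KAT1 was at 0.65 and MYB60 at 0.38. The part of guard cells in the CBF2 difference was not tested. Of 4 root markers, RHD6 was below the 40th percentile on every array. Of the 3 tested, 1 was higher and 1 lower in Col-0 at 6 h than in unwounded leaves, against 15.4% and 13.6% of all probe sets. PYK10, a root and stress beta-glucosidase gene, was higher (3.01 ± 0.75), at 1112, 158 and 404 on the 6h wound arrays A, B and C. SCR was lower, at 394, 393 and 416, against 555, 773 and 604 in unwounded leaves. The root marker sum was 665 to 1602 on Col-0 6h wound arrays, against 721 to 896 on Col-0 control arrays, and its part in the 6 h results was not tested.

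The genes most alike in pattern were found by Pearson's r of log2 signal over the 18 arrays with the mean standardised level of each set, as a description. Closest to the CBF genes were RAV1 (r = 0.91), AT3G23170 (r = 0.91), SEN1, a gene of dark-induced senescence (r = 0.88), AT3G25600 (r = 0.88) and AT2G27830 (r = 0.87). RAV1 was at 1638, 1833 and 1831 on OE control A, OE control B and OE 6h wound C, and at 982 on OE 1h wound B, the other array with CBF1 and CBF2 high. Closest to the 7 protective genes were the nitrate transporter gene NRT1.7 (r = 0.95), AT1G10080 (r = 0.95), AT1G51090 (r = 0.94), AT1G16850 (r = 0.91) and PYD1, of pyrimidine breakdown (r = 0.90). The arrays fall into groups, and all 18 enter both measures.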

How the data were processed

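Leaf RNA of 18 samples was measured on 18 ATH1 arrays with 1 colour. MAS5 is the tool named per the submitters' processing notes, with a version not given in the sources used here. The deposited signal intensity values are linear, and the authors' scaling puts the mean of each array, trimmed of 2% at either end, at 500.0 to 500.1. A further 90 columns of per-array values were not used, because their names match no sample. The number of arrays, 3 per group, limits the precision.

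The deposited signals were converted to log2 with no further scaling. Probe sets stayed in when they reached the 40th percentile of an array on 3 or more of the 18 arrays, which left 14823. Symbols were taken from a RefSeq gene table of assembly TAIR10.1. Limma 3.58.1 in R 4.3.3 was fitted with 1 mean per group, a variance trend and Benjamini-Hochberg adjustment over all 14823 probe sets, two-sided, with calls at an adjusted p below 0.05. The 9 Col-0 arrays were fitted alone for contrasts within Col-0, and all 18 for contrasts with OE. The fits were tested on simulated data. The plots use matplotlib 3.10.9 (Python 3.11.15).

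The 10 genes and the 13 other lists were chosen with earlier results of these data known. Of those lists, 109 of 117 genes had a probe set. The rule for naming allowed all 10 genes, at most the 4 called genes of each list with the largest changes in a contrast, every clock gene, and the 5 genes most alike in pattern; exceptions are said to be so. Array letters were not used to pair samples, as the labels do not say what they mark. Correlations of same-letter deviations were -0.08 to 0.10 among the Col-0 groups, where 0 of 9 exceeded 0.1. Among all groups they were -0.60 to 0.24, where 5 of 45 did.

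Other scalings tried were quantile normalization and centring of each array on its median, and an offset of 16 was added before log2. The filter was dropped or set at the 60th percentile. The letter entered as a block, the variance trend or the treatment term was left out, Col-0 contrasts were fitted on all 18 arrays, and each array was dropped in turn. Leaving out the 6 OE arrays closest to another treatment label was chosen after seeing the data. Sequences of these genes are not shown.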

Additional observations from a re-analysis of the deposited data

Results flagged for a closer look

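CBF3 and ERD10 differed between OE and Col-0 leaves in the response at 6 h over unwounded leaves, by the test of the difference itself. The log2 difference in response was -5.13 ± 1.29 for CBF3 (SE; limma adjusted p = 0.0146) and 2.47 ± 0.52 for ERD10 (SE; limma adjusted p = 0.00954). With only the 3 OE arrays whose label matched the closest Col-0 group, CBF3 was at -0.43 (limma adjusted p = 0.851). ERD10 was then at 1.99, nearer to its first value, and its call was lost (limma adjusted p = 0.124) in a fit with 1 OE array per label. The cause was not tested.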

How the results depend on the processing

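In the Col-0 comparisons, the calls for CBF3, COR15B and ERD10 at 6 h held under each setting tried. Fitting all 18 arrays gave 4 called probe sets at 1 h, and 2351 with 3 of the 10 genes at 6 h over unwounded leaves. With 1 array left out, calls at 1 h ranged from 376 to 1196 with 0 to 3 of the 10 genes. For OE against Col-0, no treatment term gave 169 calls and 0 genes, and leaving out 1 array gave 336 to 1440 calls and 0 to 2 genes. The difference in response at 1 h ranged from 0 to 416 calls and 0 to 2 genes with 1 array left out. At 6 h it ranged from 1329 to 5676 calls and 2 to 5 genes, and without the 6 OE arrays it gave 125 calls and 0 genes. The cause of these shifts was not tested. The share of calls that were higher moved with scaling: with subtraction of array medians it was 83.5% at 1 h against 62.4% as reported, 41.2% at 6 h over 1 h against 59.6%, and 35.0% in OE against 62.2%, where quantile normalization gave 50.2%. The median of all probe sets at 6 h over 1 h was -0.06 with array medians subtracted, against 0.13 as reported.

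Across the 10 genes and all settings, 42 values changed sign, 0 of them called before or after. At 1 h over unwounded leaves COR15B became 0.030 with quantile normalization and 0.10 with array medians, and CBF1 -0.023 after addition of 16. In OE over Col-0, KIN1 became 0.024 with quantile normalization. Without the 6 OE arrays the response difference at 1 h became 0.43 for COR15A, 0.29 for COR15B, 0.75 for COR47, 0.83 for ERD10, 0.80 for RD29A and 0.63 for KIN1. At 6 h it became 0.83 for CBF1, 0.39 for CBF2, 0.26 for COR15A, 0.87 for COR15B and 0.62 for KIN1. With 1 array left out, the change at 1 h in Col-0 ranged from -0.83 to 0.93 for CBF1, -0.10 to 0.40 for CBF3, -0.30 to 1.06 for COR15A, -0.70 to 0.50 for COR15B, -0.19 to 1.20 for RD29A and -0.016 to 0.71 for KIN1. At 6 h over unwounded leaves it ranged from -0.18 to 1.58 for CBF1, -0.37 to 1.01 for RD29A, -0.71 to 0.083 for COR47 and -0.42 to 0.11 for ERD14, and over 1 h from -0.012 to 0.43 for CBF2. In OE over Col-0 it ranged from -0.39 to 0.13 for RD29A, -0.37 to 0.086 for COR15A and -0.25 to 0.11 for KIN1. The response difference ranged from -0.68 to 0.15 for ERD10 at 1 h and from -0.56 to 0.97 for RD29A at 6 h.

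With the replicate letter as a block, calls were 812 at 1 h, 4176 at 6 h over unwounded leaves, 6277 at 6 h over 1 h, 499 in OE over Col-0, and 0 and 2731 for the response differences. The block changed no call of the 10 genes, and the labels do not say what a letter marks. Dim signals limit CBF1 throughout Col-0, so its values above measure no change, and CBF3 before 6 h.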
